A study of Gallus gallus with 3 samples.

Results

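The 10 genes described here encode transcription factors that set or mark the identity of gonadal somatic cells: FOXL2, GATA4, GATA6, WT1, RUNX1, SOX9, DMRT1, DMRT2, LHX9 and EMX2. They were found by gene symbol among 19309 genes with a value, and each matched 1 entry. Transcript levels came from RNA sequencing of granulosa cells, the somatic cells next to the oocyte, taken from ovarian follicles of chickens. There was 1 library for each of 3 stages: the 6 mm follicle, not yet selected into the preovulatory hierarchy (hens of 10 to 15 months), the F5 follicle, early in that hierarchy and growing fast (10 to 16 months), and the F1 follicle, first in line for ovulation (10 to 17 months). The labels name no treatment or genotype and call the cells natural granulosa cells; they state no number of hens or follicles pooled per library. The age ranges are as labelled and differ only in their last number, by 1 month from stage to stage, so they may not be measured ages. With 1 library per stage no difference has a replicate check or a test. Values in brackets bound exact 95% intervals for counting error alone. Levels are FPKM values, which scale reads by gene length and library total. Library totals, recovered from the FPKM steps, were 14923359 reads (6 mm), 14137511 (F5) and 14086626 (F1). All 10 granulosa markers listed, among them the FSH receptor FSHR, inhibin alpha INHA and the egg coat gene ZP3, had an FPKM of at least 1 in 6 mm and F5 and 8 did in F1, where AMH and FST were below 1. Many genes reached that level: 12070 in 6 mm, 11432 in F5 and 10283 in F1. Of 14 theca, stroma and smooth muscle markers matched, 14 did in 6 mm, 4 in F5 and 2 in F1. In F1 against 6 mm, 4 of the 10 granulosa markers were at least 2-fold higher and 5 lower. Of all 12482 genes tested there, 7.45% were higher and 32.8% lower.

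FOXL2, a forkhead protein, is known as a keeper of ovarian identity: in adult mice its loss lets granulosa cells take on features of Sertoli cells, the supporting cells of the testis. GATA4 and GATA6 are zinc finger proteins that act on genes of the granulosa, and RUNX1 works beside FOXL2 in the fetal mouse ovary. WT1, LHX9 and EMX2 are needed in mice for the gonad to form from the coelomic epithelium. SOX9 drives Sertoli cell differentiation, and DMRT1, a Z-linked gene in birds, is required for testis development in the chicken. DMRT2 is a relative of DMRT1 that is best known from somite development.

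Levels of the 10 genes spanned more than 4 orders of magnitude, and the libraries differed mainly in 2 groups. DMRT1 and DMRT2 were far higher in F5 and F1 than in 6 mm. WT1, EMX2, LHX9 and SOX9 were highest in 6 mm. FOXL2, GATA4, GATA6 and RUNX1 differed by at most 2.78-fold over the 3 libraries. In 6 mm the order ran from FOXL2 through GATA4, GATA6, EMX2, WT1 and RUNX1 down to LHX9, SOX9, DMRT1 and DMRT2, and the counting intervals of the last 4 overlapped. In F5 it ran from FOXL2 through GATA6, GATA4, EMX2, RUNX1, DMRT2, DMRT1 and WT1 to SOX9 and LHX9, the last pair with overlapping intervals. In F1 the order ran from FOXL2 through GATA6, DMRT2, GATA4, RUNX1, DMRT1, EMX2 and WT1 to LHX9 and SOX9. There the intervals of DMRT1 and EMX2 overlapped, as did those of LHX9 and SOX9.

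**Figure D1:**
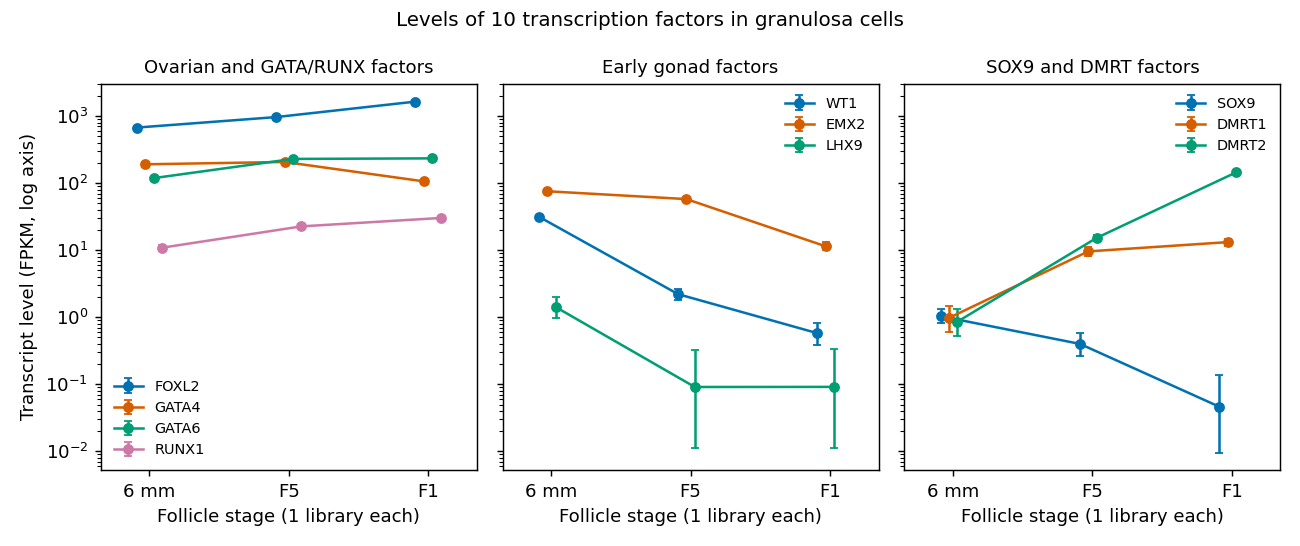
FPKM (log axis) of the 10 genes in the 6 mm, F5 and F1 libraries, with exact 95% counting intervals as bars and 1 library per stage. FOXL2 lies above the other members in each library, WT1 goes from 31.7 to 0.579, and DMRT2 goes from 0.859 to 144.

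Differences between libraries were taken on the log2(FPKM + 1) scale, which understates those of low genes. Genes had to reach an FPKM of 1 in at least 1 library of the pair. In F5 against 6 mm all 10 members passed that filter. DMRT1 and DMRT2 were at least 2-fold higher in F5 (2 members, against 7.64% of 12611 genes), and WT1 and LHX9 at least 2-fold lower (2 members, against 10.8%). By that measure 4-fold was exceeded in F5 against 6 mm by DMRT1 and DMRT2 upward (background 2.09%) and by WT1 downward (background 1.96%). In F1 against F5, 8 members passed, since SOX9 and LHX9 were below 1 in both libraries. Only DMRT2 was at least 2-fold higher in F1 (1 member, background 5.09% of 11758 genes), and WT1 and EMX2 were lower (2 members, background 22.9%). In F1 against 6 mm all 10 passed; FOXL2, RUNX1, DMRT1 and DMRT2 were higher (4 members, background 7.45% of 12482 genes) and WT1, EMX2 and LHX9 lower (3 members, background 32.8%). The 4-fold mark was exceeded in F1 against F5 by DMRT2 upward (background 1.43%) and EMX2 downward (background 5.2%), and in F1 against 6 mm by DMRT1 and DMRT2 upward (background 2.76%) and WT1 and EMX2 downward (background 9.36%). Several members passed the filter only through the library in which they were high: LHX9, SOX9, DMRT1 and DMRT2 in both comparisons with 6 mm, and WT1 in both comparisons with F1. For this reason these counts are not support for a difference. Among genes annotated as transcription factors the shares were 9.43% of 403 higher and 39.7% lower in F1 against 6 mm.

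The median difference of all genes was -0.13 in F5 against 6 mm, -0.53 in F1 against F5 and -0.64 in F1 against 6 mm. Scaling the libraries to the same sum moved these medians to -0.31, -0.62 and -0.91, and median-ratio scaling to -0.01, 0.02 and 0.03. With median-ratio scaling the share of genes at least 2-fold higher and lower in F1 against F5 came to 10.8% and 11.6%, and in F1 against 6 mm to 15.5% and 17.4%. Scaling to the same sum gave 5.56% and 45.2% in F1 against 6 mm. Values relative to the median gene are therefore given below for some of the members. Other directions are those of the FPKM values as deposited, and scaling can reverse small ones.

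**Figure D2:**
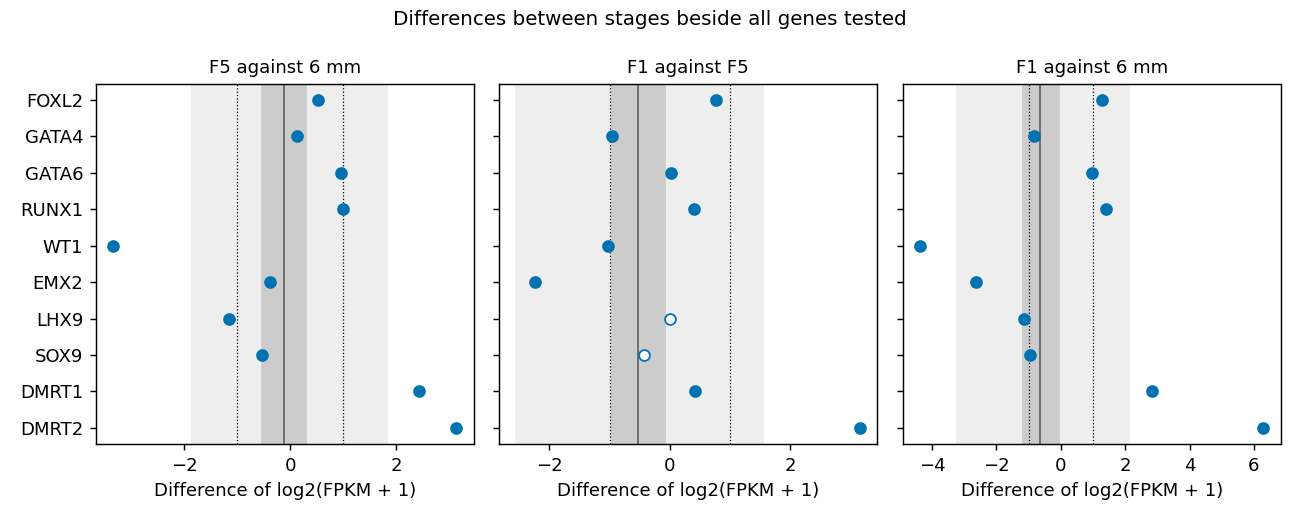
Difference of log2(FPKM + 1) for each member in the 3 comparisons. Filled points passed the filter and open points did not; the light and dark bands hold the central 95% and the central 50% of all genes tested, the solid line is their median and the dotted lines mark 2-fold. DMRT2 lies above the light band in each comparison, and WT1 lies below it in both comparisons with 6 mm.

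FOXL2 (ENSGALG00000021009, chromosome 9, 5200075 to 5200992, minus strand; the build is not named in the sources used here) stood at 675 in 6 mm, 967 in F5 and 1646 in F1. Each step was upward, by 1.43-fold (1.396 to 1.473) and then 1.70-fold (1.66 to 1.74). F1 was 2.44-fold above 6 mm (2.381 to 2.5002), a log2 difference of 1.29, or 1.93 relative to the median gene. Scaled to the same sum the FOXL2 difference was 0.97, short of 2-fold. Among the genes annotated as transcription factors, with the members added, FOXL2 ranked 2 in each library. The gene above it was YBX1, a cold shock domain protein, at 734 in 6 mm, and MADH2, an older symbol of the activin signal transducer SMAD2, at 1701 in F5 and 1875 in F1. Among all genes FOXL2 ranked 54 in 6 mm, 56 in F5 and 43 in F1. It made up 60.9%, 64.0% and 75.3% of the members' summed FPKM in 6 mm, F5 and F1. Of 13 other forkhead genes tested in F1 against 6 mm, 0 were at least 2-fold higher and 6 were lower. Among all genes annotated as transcription factors the shares were 9.43% higher and 39.7% lower. FOXP4 was at 7.05 in F1 against 103 in 6 mm and FOXM1, which acts in the cell cycle, at 1.62 against 18.3.

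GATA4 (ENSGALG00000016662, chromosome 3, 106954748 to 106976693, plus strand) was at 191 in 6 mm, 207 in F5 and 106 in F1. F1 was the low library, 1.95-fold below F5 (1.81 to 2.09) and 1.80-fold below 6 mm (1.67 to 1.93). Relative to the median gene the GATA4 difference was -0.43 in F1 against F5 and -0.20 in F1 against 6 mm. GATA6 (ENSGALG00000014976, chromosome 2, 102302371 to 102315684, plus strand) was at 119 in 6 mm, 229.9 in F5 and 234 in F1. Here 6 mm was the low library, with F5 1.93-fold higher (1.82 to 2.06), while F1 and F5 were 1.02-fold apart with an interval that holds 1 (0.969 to 1.07). That near equality depended on the scaling. Relative to the median gene the GATA6 difference in F1 against F5 was 0.56, and scaled to the same sum it was -0.09. The ratio of GATA4 to GATA6, which does not depend on how libraries are scaled, was 1.61 in 6 mm (1.51 to 1.72), 0.901 in F5 (0.853 to 0.952) and 0.454 in F1 (0.424 to 0.486). The 3 intervals do not overlap, and by FPKM GATA4 was the more abundant of the pair in 6 mm only. The size of the ratio within a library rests on the gene lengths behind the FPKM values, but its course over the libraries does not. The smallest lengths that fit the FPKM values were 772 for GATA4 and 905 for GATA6, while the lengths listed with the genes were 526 and 413.

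By the FPKM values as deposited, the cofactors of the GATA proteins differed less. ZFPM1 (FOG1), which binds GATA factors, was at 99.7 in 6 mm, 111 in F5 and 76.2 in F1. ZFPM2 (FOG2), the partner of GATA4 in the mouse gonad, was at 9.08, 7.73 and 7.12. In F1 against 6 mm the log2 differences were -0.38 for ZFPM1 and -0.31 for ZFPM2, beside an all-gene median of -0.64. Relative to the median gene both were thus higher in F1 than in 6 mm. The remaining GATA genes were low: GATA5 was at 1.94 in 6 mm and 0.0601 in F5, GATA3 at 0.499 and 0.0570, GATA2 at 0.286 and 0.0252, and all 3 had no reads in F1.

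Unnamed entries next to the GATA genes, chosen after their values were seen, had their low library in common with them. Novel00945, an unnamed entry of the authors' annotation, lies on the minus strand 485 bases from the start of GATA4 and is read away from it (chromosome 3, end at 106954263). Its FPKM was 36.5 in 6 mm, 35.2 in F5 and 18.6 in F1, equal to 19.1%, 17.0% and 17.4% of GATA4. F1 was the low library, 1.90-fold below F5 (1.65 to 2.19), as it was for GATA4. Upstream of GATA6 on the same strand, at 2855 bases, Novel00564 was at 14.6 in 6 mm, 36.4 in F5 and 27.2 in F1. Whether reads were counted by strand is not given, so reads from such close entries may not be fully separated.

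**Figure D3:**
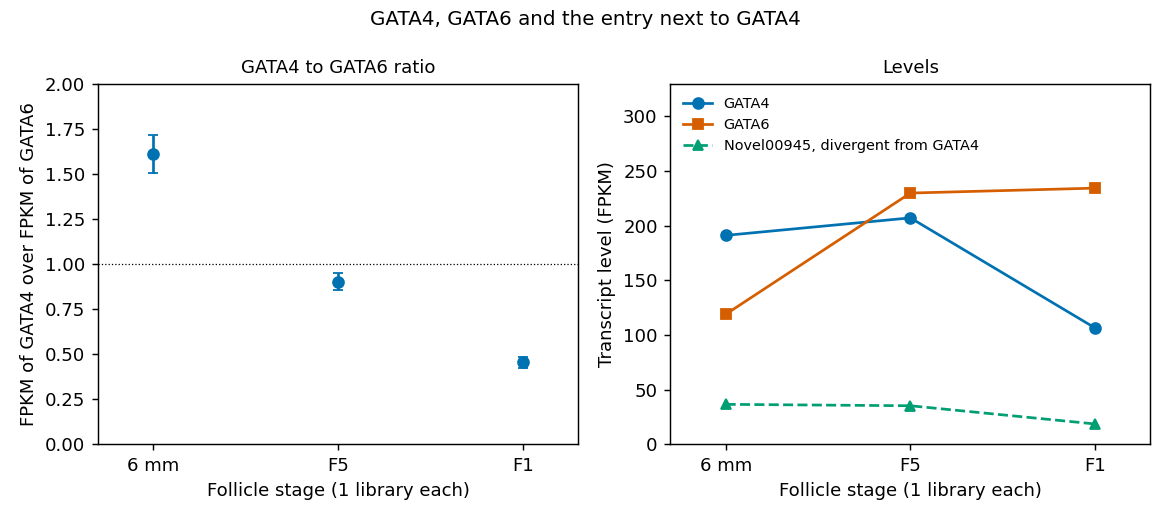
The left panel plots the ratio of GATA4 FPKM to GATA6 FPKM in each library with exact 95% counting intervals, and the dotted line marks equal levels. The right panel plots the FPKM of GATA4, GATA6 and the divergent entry Novel00945. The ratio goes from 1.61 in 6 mm to 0.454 in F1, and Novel00945 is lowest in F1, as GATA4 is.

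RUNX1 (ENSGALG00000016022, chromosome 1, 105396887 to 105544588, minus strand) was at 10.9 in 6 mm, 22.7 in F5 and 30.3 in F1. Its low library was 6 mm: F5 was 2.08-fold above it (1.82 to 2.38) and F1 2.78-fold (2.44 to 3.16). F1 was 1.34-fold above F5 (1.20 to 1.48). The KEGG column of this entry reads RUNX2, while its gene name is RUNX1, and a separate entry named RUNX2 lies on chromosome 3. The entry named RUNX2, the gene of the bone master regulator, had the opposite order, at 12.01 in 6 mm, 2.49 in F5 and 1.02 in F1, 11.8-fold lower in F1 than in 6 mm (9.44 to 15.0). RUNX3 was at 0.501, 0.235 and 0.0147. CBFB, the subunit that RUNX proteins need for stable DNA binding, was nearly level at 112, 122 and 100.6, and the corepressor RUNX1T1 was at 2.31 in 6 mm against 0.112 in F5 and 0.175 in F1. RUNX1 is also a gene of blood cells. Of 12 leukocyte markers with reads, 11 were highest in 6 mm, and the summed FPKM of that list was 51.2 in 6 mm, 9.07 in F5 and 2.51 in F1, but PTPRC was at 0.219, 0.392 and 0.0179. The part of leukocytes in the level of RUNX1 was not tested.

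WT1 (ENSGALG00000012115, chromosome 5, 5455022 to 5489423, minus strand) was at 31.7 in 6 mm, 2.21 in F5 and 0.579 in F1. It was 14.3-fold lower in F5 than in 6 mm (11.8 to 17.4) and 3.82-fold lower in F1 than in F5 (2.54 to 5.92). In F1 it rested on 30 reads, and relative to the median gene its log2 difference in F1 against F5 was -0.50, short of 2-fold. That value depended on the pseudocount of 1. With a pseudocount of 0.1 the WT1 difference was -1.77, beside a median of -0.61 for all genes. EMX2 (ENSGALG00000009302, chromosome 6, 28814903 to 28820582, plus strand) was at 75.8 in 6 mm, 57.9 in F5 and 11.4 in F1. For EMX2 the step from 6 mm to F5 was 1.31-fold downward (1.21 to 1.41) and that from F5 to F1 5.06-fold (4.38 to 5.88). The ratio of EMX2 to WT1 was 2.39 in 6 mm (2.23 to 2.57), 26.2 in F5 (21.6 to 32.0) and 19.7 in F1 (13.4 to 29.96). WT1 was thus lower mainly at the first step and EMX2 mainly at the second. LHX9 (ENSGALG00000002223, chromosome 8, 2269656 to 2279402, minus strand) was near the detection limit, at 1.43 in 6 mm from 33 reads and at 0.0913 in F5 and 0.0916 in F1 from 2 reads each. Its level in 6 mm was 15.6-fold that in F5 (3.998 to 134).

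Relatives of LHX9 and EMX2 were low. Of 9 other LIM homeobox and EMX genes matched, 8 had no reads in F1, and the highest level of any in 6 mm was 2.003 (LHX8, a factor of oocytes). WTAP, a WT1-associated protein of the RNA methylation machinery, was at 59.9, 44.0 and 32.3 in 6 mm, F5 and F1. By contrast BASP1, a cofactor that turns WT1 into a repressor, was high throughout at 209, 235 and 297.

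Most markers of other cell types were highest in 6 mm as well, beside WT1, EMX2, LHX9 and SOX9. That course was common in other lists too. It held for 15 of 16 other forkhead genes, 7 of 10 other SOX genes and 14 of 26 other gonad factors with reads. Among granulosa markers it held for 4 of 10. The share of all genes highest in 6 mm was not counted. In F1 against 6 mm, 32.8% of 12482 genes were at least 2-fold lower and 7.45% higher. Of 14 markers of surface epithelium and mesothelium with reads, 12 were highest in 6 mm. KRT19 was at 91.0 in 6 mm, 3.17 in F5 and 0.354 in F1, and the keratins KRT8 and KRT18 were at 11.02 and 8.51 in 6 mm with no reads in F5 or F1. MSLN and LRRN4 were exceptions: LRRN4 was at 16.6, 381 and 640.5. With it the list's summed FPKM was 207 in 6 mm, 410.2 in F5 and 647 in F1, and without it 190.5, 29.2 and 6.24. Of 14 theca, stroma and smooth muscle markers 13 were highest in 6 mm, where they summed to 798, against 23.0 in F5 and 19.1 in F1. In F5 the fibroblast proteoglycan DCN had no reads, while the collagen gene COL1A2 was at 10.5 and the epithelial marker EPCAM at 19.2. All 11 oocyte and germ cell markers were highest in 6 mm, with sums of 246, 50.9 and 3.02. Endothelial markers summed to 141, 74.98 and 141, the last led by CLDN5 at 108 in F1, with 11 of 12 highest in 6 mm. Of 5 red cell and thrombocyte markers with reads, 3 were highest in 6 mm, with sums of 4.71, 0.575 and 0.204. The part of these cells in the levels of WT1, EMX2, LHX9 and SOX9 was not tested, and in bulk RNA fewer cells of a type and less RNA per cell cannot be told apart.

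**Figure D4:**
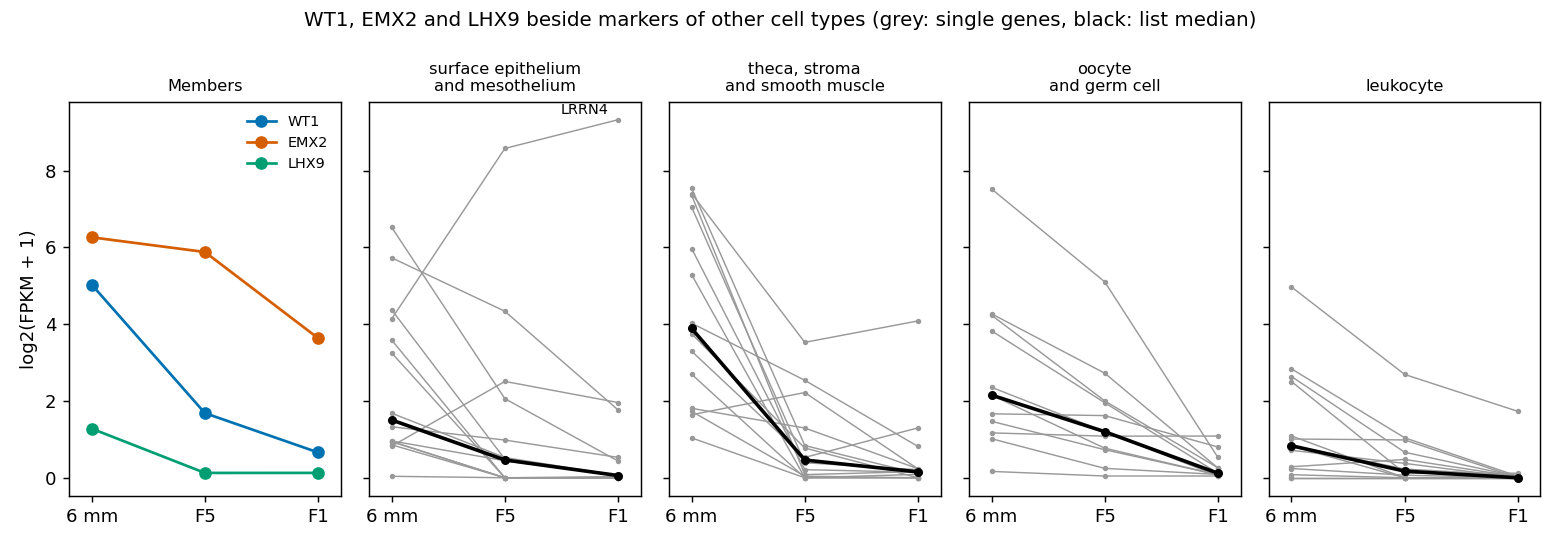
log2(FPKM + 1) of WT1, EMX2 and LHX9 in the 3 libraries (left panel) beside 4 lists of markers of other cell types, with single genes in grey and the list median in black. The list medians are highest in 6 mm, as the 3 members are; LRRN4 is the marker that goes from 16.6 in 6 mm to 640.5 in F1.

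SOX9 (ENSGALG00000004386, chromosome 18, 9067763 to 9073622, plus strand) was low in all libraries, at 1.04 in 6 mm from 71 reads, 0.401 in F5 from 26 reads and 0.0464 in F1 from 3 reads. F1 was 22.3-fold below 6 mm by the ratio of FPKM values (7.34 to 111). The ratio of FOXL2 to SOX9 was 651 in 6 mm (515 to 834), 2414 in F5 (1647 to 3696) and 35467 in F1 (12135 to 171998). Of 11 other SOX genes matched, 4 passed the filter in F5 against 6 mm, with 2 lower and 0 higher (all genes 10.8% and 7.64%). In F1 against F5, 1 of 4 was higher and 1 lower (all genes 5.09% and 22.9%). The higher one was SOX8, which acts beside SOX9 in the mouse testis, at 0.748 in 6 mm, 0.526 in F5 and 5.59 in F1, 10.6-fold higher in F1 than in F5 (5.87 to 21.1). The lower one was SOX3, at 2.58, 1.21 and 0.0391.

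DMRT1 (ENSGALG00000010160, chromosome Z, 25808415 to 25864441, plus strand) was at 0.980 in 6 mm from 21 reads, 9.61 in F5 from 195 reads and 13.2 in F1 from 267 reads. The 6 mm library was the low one, with F5 9.80-fold above it (6.24 to 16.2), and F1 was 1.37-fold above F5 (1.14 to 1.66). That last step was a log2 difference of 0.42, or 0.95 relative to the median gene. DMRT2 (ENSGALG00000026790, chromosome Z, 25902813 to 25905855, plus strand) was at 0.859 in 6 mm from 19 reads, 15.3 in F5 from 320 reads and 144 in F1 from 3016 reads. It was 17.8-fold higher in F5 than in 6 mm (11.2 to 29.9) and 9.46-fold higher in F1 than in F5 (8.43 to 10.7). Between 6 mm and F1 the DMRT2 levels were 168-fold apart (107.5 to 279.7). By the difference of log2(FPKM + 1), DMRT2 ranked 10 of 12482 genes in F1 against 6 mm, and DMRT1 ranked 178. Among the 403 tested genes annotated as transcription factors they ranked 2 and 9. Both passed the filter there only through F1, where they were high, so these ranks are not support for a difference. Among transcription factors by level DMRT2 went from rank 407 in 6 mm to 157 in F5 and 13 in F1. The ratio of DMRT2 to DMRT1 was 0.877 in 6 mm (0.446 to 1.71), 1.59 in F5 (1.33 to 1.91) and 10.9 in F1 (9.65 to 12.5).

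DMRT1 and DMRT2 lie in tandem on chromosome Z with DMRT3 between them, and the gap from the end of DMRT1 to the start of DMRT2 is 38.4 kb. DMRT3, a relative known from neurons of the spinal cord, had no reads in 6 mm or F5 and was at 0.871 in F1 from 24 reads. With a floor of 3 reads put in for F5 it was 8.03-fold higher in F1 than in F5, while the exact lower limit from the reads themselves was 6.04. Of the 9 other genes within 500 kb of the pair, 4 reached an FPKM of 1 in any library and 1 was at least 2-fold higher in F1 than in 6 mm. That gene was KANK1, a regulator of the actin cytoskeleton, 11.5 kb upstream of DMRT1, at 0.689, 0.881 and 5.87 in 6 mm, F5 and F1. KANK1 was below 1 in 6 mm and F5. SMARCA2, a chromatin remodelling ATPase on the far side of DMRT2, was at 118, 128 and 211. Its log2 difference in F1 against 6 mm was 0.84, beside an all-gene median of -0.64, so the count of 1 depends on the scaling. CBWD1 was also highest in F1, at 2.33, 2.22 and 2.90. PGM5 was highest in F5, at 4.85, 11.1 and 0.649. Over chromosome Z, 547 genes were tested in F1 against 6 mm, of which 12.2% lay at least 2-fold higher and 32.2% lower. The shares of all genes were 7.45% and 32.8%. The median difference was -0.56 on chromosome Z beside -0.64 for all genes.

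**Figure D5:**
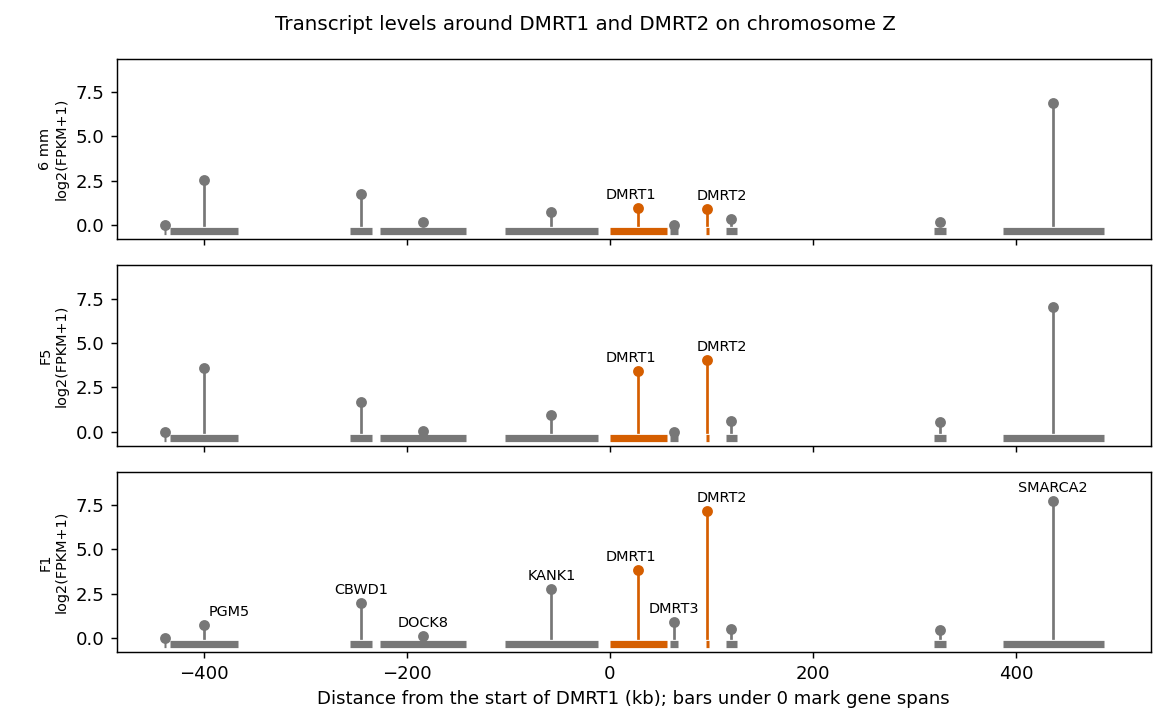
log2(FPKM + 1) of the genes within 500 kb of DMRT1 and DMRT2 (orange) in the 6 mm, F5 and F1 libraries, placed by distance in kb from the start of DMRT1; bars under 0 mark gene spans. DMRT1 and DMRT2 are near 1 on this scale in 6 mm and taller in F5 and F1. DMRT3, KANK1, SMARCA2 and, by less, CBWD1 are also highest in F1.

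Other genes of gonad development were taken as a list of 33, of which 26 were matched. In F5 against 6 mm, 4 of 22 tested were at least 2-fold higher and 4 lower (median -0.01). In F1 against 6 mm, 4 were higher and 11 lower (median -0.96). Of all genes tested, 7.64% were higher and 10.8% lower in F5 against 6 mm (median -0.13). In F1 against 6 mm these shares were 7.45% and 32.8% (median -0.64). The nuclear receptor NR5A1, a regulator of steroidogenic genes, was at 53.5 in 6 mm, 323 in F5 and 628 in F1. ESR1, an oestrogen receptor, was at 0.521, 1.34 and 17.0, and ESR2 stayed low at 0.764, 1.97 and 1.33. NR0B1, which represses NR5A1 activity, was at 61.2, 33.6 and 4.88. HEMGN, a Z-linked gene tied to DMRT1 in the chicken testis, was high in all libraries at 539, 846 and 336, with F1 2.52-fold below F5 (2.42 to 2.62). Of the WNT branch of ovarian development, the ligand WNT4 was at 141 in 6 mm, 1885 in F5 and 14.3 in F1, 13.4-fold higher in F5 than in 6 mm (12.9 to 13.9) and 132-fold lower in F1 than in F5 (118 to 149). RSPO1 was at 0.626 in 6 mm from 16 reads with no reads in F5 or F1, and CTNNB1 was at 53.6, 96.5 and 41.0.

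Textbook targets of the members did not follow a single course. Of 20 tested in F1 against 6 mm, 6 were at least 2-fold higher and 11 lower (median -1.16). Of all genes tested, 7.45% were higher and 32.8% lower there (median -0.64). AMH, which WT1, GATA4 and SOX9 activate in the mouse testis, was 493-fold lower in F1 than in 6 mm (347 to 726). WT1, GATA4 and SOX9 were lower there too, but SOX9 had 3 reads in F1. Relative to the median gene the GATA4 difference was -0.20. INHA, on the same list of targets, went the other way, at 132 in 6 mm, 4631 in F5 and 3013 in F1. FST, the activin-binding follistatin and a target of FOXL2 in mice, was 464-fold lower in F1 (323 to 693) while FOXL2 was 2.44-fold higher. CYP19A1, the aromatase, had 37 reads in 6 mm and no reads in F5 or F1. STAR, a gene that FOXL2 represses in mammalian cells, was 279-fold higher in F1 than in 6 mm (193 to 421). PODXL, a WT1 target in the kidney, was at 29.0 in 6 mm, 1.13 in F5 and 0 in F1. PTGDS, a SOX9 target in the testis, had 1 read in 6 mm, none in F5 and 1 in F1. The part of the members in the levels of AMH and the other targets was not tested.

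The genes whose levels in the 3 libraries lay nearest to each member, by Euclidean distance of log2(FPKM + 1) among 9555 genes with a symbol, were looked up for the 8 members that reached an FPKM of 10. FOXL2 lay nearest to the ribosomal protein genes RPS17L, RPS10 and RPS3A, at distances of 0.26, 0.34 and 0.43. GATA4 lay nearest to HMGN2 (0.23), CCT6 (0.28) and SRSF3 (0.29), and GATA6 to SRPR (0.15), LMF2 (0.32) and ATP5G2 (0.35). RUNX1 lay nearest to SMYD4 (0.19), GAS41 (0.29) and PDP1 (0.31), and EMX2 to PAPSS1 (0.30), TACC3 (0.31) and ODF3 (0.34). DMRT1 lay nearest to UBASH3B (0.16), HPD (0.28) and HELIOS (0.44). WT1 had 1 gene within a distance of 0.5, LECT1 at 0.45, followed by KPNA7 (0.57) and BTBD6 (0.60). DMRT2 had 0, and its nearest were RELT (0.86), ADGRD2 (1.38) and INHBA (1.57), the beta A subunit of inhibin and activin. With 3 libraries such likeness is a description of level and course only.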

How the data were processed

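Per the labels' protocols, poly-A RNA of granulosa cells was reverse transcribed from random hexamers. Per the submitters' processing notes, TopHat2 2.0.12 and HTSeq 0.6.1 were used; the genome build and the strand setting are not given in the sources used here. The authors deposited FPKM values per gene with positions and names. In each file 2 lines lack an identifier and values and were skipped.

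Symbols came from the gene name column, else from the first KEGG symbol. All 17019 genes above 0 were whole reads over a whole length and library total (relative tolerance 1e-09). The smallest whole numbers that fit came to 94.7%, 93.8% and 94.8% of the totals for 6 mm, F5 and F1. Reads given for a gene are thus exact or too few by a whole factor, and in the second case its intervals are too wide. Which genes are affected is not known. For only 7.53% of the 17019 genes did the fitted length divide the length listed with the gene. Orders and ratios of different genes within a library therefore rest on the lengths behind the FPKM values. Ratio intervals are exact conditional binomial and level intervals exact Poisson. Ratio intervals alone were checked, on simulated Poisson reads, which they fit by construction, so the check covers the computation only. It left out genes with as few reads as SOX9 and LHX9. A gene without reads in 1 library got a floor of 3 reads there. No count test was run, since 1 library per stage leaves no spread between samples to estimate. Comparisons used log2(FPKM + 1) at an FPKM of at least 1.

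Members and 15 gene lists were chosen with earlier results of these data known. Genes named are the members, a preset set of partners and targets, up to 4 per list that differed most and reached an FPKM of 5, defining markers, and the 3 genes most like each member; neighbouring genes and other list genes named were chosen after their values were seen. Alternatives were other pseudocounts, filters, scalings and matching rules. Python 3.11.15, numpy 2.4.6, pandas 2.3.3 and scipy 1.17.1 were used.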

Additional observations from a re-analysis of the deposited data

How the results depend on the processing

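With pseudocounts of 0.1 and 5, no filter, a filter at an FPKM of 5, 3 other scalings, summed rows, gene names alone and, added after seeing the data, centring on the median gene, 30 member differences were recomputed. Filters and matching rules cannot alter them. Under the 6 other settings the shift of each value from its main value was set against the wider arm of its log2 FPKM ratio interval. The shift was no larger than that arm for 105 of 180 values and larger for 75. A value in the first group can still lie outside the interval of the FPKM ratio. None of those at least 2-fold turned its sign. Of the smaller ones 4 did: GATA4 in F5 against 6 mm (-0.08) and, in F1 against F5, GATA6 (-0.09) and LHX9 (-0.01) when scaled to the same sum, and SOX9 in F1 against F5 (0.11) when centred. Their main values were 0.12 for GATA4, 0.03 for GATA6, 0.0004 for LHX9 and -0.42 for SOX9. Centring takes the all-gene median, -0.53 in F1 against F5, from each difference. By the ratio of FPKM values SOX9 was 8.64-fold lower in F1 than in F5 (2.65 to 44.6), from 3 and 26 reads. Members lower in F5 than in 6 mm numbered 1 with a pseudocount of 5 or a filter at 5 (all genes 3.62% and 9.07%), where LHX9 dropped out. Members lower in F1 than in F5 numbered 1 under those settings, with median-ratio and upper quartile scaling and when centred, where WT1 dropped out. The shares of all genes lower under these settings ran from 9.31% (pseudocount of 5) to 22.6% (filter at 5). Members lower in F1 than in F5 numbered 3 when scaled to the same sum, GATA4 joining (all genes 26.8%). With a pseudocount of 0.1, RUNX1 joined the members higher and SOX9 the members lower in F5 than in 6 mm (3 each). The shares of all genes were 10.0% and 15.5%. SOX9 also joined the members lower in F1 than in 6 mm (4 in all, beside 39.9% of all genes). Calling members by an FPKM ratio of at least 2 with an interval excluding 1 gave the same changes as that pseudocount. It also added SOX9 to those lower in F1 than in F5 (3 in all). The share of all genes called that way was not counted. Members higher in F5 than in 6 mm numbered 4 with median-ratio scaling and when centred (all genes 8.68% and 9.21%), GATA6 and RUNX1 joining. Members higher in F1 than in F5 numbered 2 with median-ratio and upper quartile scaling and when centred, FOXL2 joining (all genes 10.8%, 8.14% and 10.4%). Members lower in F1 than in 6 mm numbered 5 when scaled to the same sum, GATA4 and SOX9 joining, and those higher 3, without FOXL2. Of all genes 45.2% were lower and 5.56% higher with that scaling. LHX9 left the members lower in F1 than in 6 mm (2 in all) with a pseudocount of 5, the filter at 5, median-ratio scaling and centring. The shares of all genes lower were 14.3%, 31.7%, 17.4% and 14.2%. GATA6 joined the members higher in F1 than in 6 mm (5 in all) with median-ratio and upper quartile scaling and centring. The shares of all genes higher were 15.5%, 10.5% and 15.1%. The range over these settings for F1 against 6 mm was 4.67 to 7.24 for DMRT2 and -5.55 to -2.72 for WT1. No replicate could be left out with 1 library per stage. No paired analysis was possible because each stage has 1 library. LHX9 and SOX9, at 2 or 3 reads in F1, are limited by depth.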

Other observations

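Of the 10 members, 3 had an entry within 5 kb of their start that is read away from it on the opposite strand, against 19.0% of all 19309 genes. Besides Novel00945 next to GATA4, these were ENSGALG00000020661, 2520 bases from EMX2, and ENSGALG00000028103, 2236 bases from WT1. The entry next to EMX2 was at 1.89 in 6 mm from 13 reads and 1.84 in F5 from 12 reads, with no reads in F1. With a floor of 3 reads put in for F1 it was 3.99-fold lower there than in F5, where EMX2 was 5.06-fold lower. The exact lower limit from the reads themselves was 2.77. The entry next to WT1 had 1 read in 6 mm and none in F5 or F1, too few for a fold. On the same strand as FOXL2, Novel01377, 3612 bases upstream, was at 1.58, 3.17 and 3.90 in 6 mm, F5 and F1, and the nearer Novel01376, 2058 bases downstream, was at 1.20, 2.19 and 1.68.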
